A study of Mus musculus with 20 samples.

Results

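The genes described here govern SREBP2, the transcription factor that sets cholesterol supply, together with proteins that move, take up or store cholesterol. They are Srebf2, Scap, Insig1, Insig2, Stard4, Mylip, Scarb1 and Soat2, taken by gene name from the liver FPKM table as 8 of its 38924 genes (FPKM, fragments per kilobase of gene, scaled to the fragments assigned in the library). All 8 passed the filter on low values (FPKM above 0.5 in at least 5 libraries), which left 14524 genes for testing. The study asked how loss of thrombospondin-1 (TSP-1, gene Thbs1) acts on a diet model of non-alcoholic steatohepatitis. Livers came from 20 male C57BL/6J mice, 5 per group, bought at 5 weeks of age and fed for 12 weeks: WT on control diet (NDWT), TSP-1 knockout on control diet (NDKO), WT on CDAHFD (HFWT) and TSP-1 knockout on CDAHFD (HFKO). CDAHFD lacks choline, is low in methionine, gives its protein as single amino acids and is rich in fat, and the knockout is of the whole body.

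SREBP2 is made as a precursor in the membrane of the endoplasmic reticulum, bound to its escort SCAP. When membrane sterol is high, the INSIG proteins hold SCAP back, and when it is low SCAP carries SREBP2 to the Golgi apparatus, where proteases release its active part. That part enters the nucleus and switches on the enzymes of cholesterol synthesis, the uptake of lipoproteins and, as a brake, Insig1 itself. Cleavage is a step on protein, so transcript levels alone do not show how much active SREBP2 a liver held.

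Libraries held 15641545 to 23276322 fragments assigned to genes. Between 311 (Mylip) and 11212 (Insig2) of them lay on each of the 8 genes. Thbs1 went against the genotype labels on the control diet (0.0580 to 0.326 FPKM in NDWT, 0.986 to 1.90 in NDKO; log2FC 2.28, SE 0.24, FDR 1.02e-05) and did not separate them on CDAHFD (log2FC −0.39, SE 0.24, FDR 0.408). FPKM of a whole gene cannot tell transcripts of a disrupted allele from intact ones, so mice are called labelled TSP-1 null below. The CDAHFD raised the median of all tested genes by 0.53 on the log2 scale in WT and by 0.50 in mice labelled TSP-1 null. The diet effects of the 8 genes are therefore also given after median of ratios scaling, which moved log2FC by −0.54 and −0.51 at the median. Hepatocyte markers (10 genes, none at 0) summed to 38800 to 46100 FPKM in NDWT and 44100 to 51000 in NDKO. On CDAHFD the sums were 30500 to 52300.

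RefSeq promoter entries on GRCm38.p6 were at hand for 5 of the 8 genes, namely Srebf2, Scap, Insig1, Insig2 and Mylip. The 3 stretches below belong to the transcription factor and to the INSIG pair, whose transcripts moved in opposite directions with the diet. They are written 5′ to 3′ on the strand of the gene and end before the first start of the gene in any annotation used, which for Srebf2 and Insig1 lies upstream of the RefSeq start from which positions are counted. Capitals mark TCACNCCA, CACGTG or CCAAT on either strand (CCAAT on the minus strand reads ATTGG).
Srebf2, chr15:82147019-82147180, plus strand: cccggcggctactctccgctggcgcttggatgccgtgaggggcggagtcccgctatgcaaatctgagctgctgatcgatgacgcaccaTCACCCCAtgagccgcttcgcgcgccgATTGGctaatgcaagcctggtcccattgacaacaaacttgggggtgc
Insig1, chr5:28071162-28071362, plus strand: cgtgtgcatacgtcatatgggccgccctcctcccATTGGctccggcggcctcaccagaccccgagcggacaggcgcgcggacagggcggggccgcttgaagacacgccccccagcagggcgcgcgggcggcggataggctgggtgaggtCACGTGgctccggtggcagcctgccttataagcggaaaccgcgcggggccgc
Insig2, first start, chr1:121332590-121332839, minus strand: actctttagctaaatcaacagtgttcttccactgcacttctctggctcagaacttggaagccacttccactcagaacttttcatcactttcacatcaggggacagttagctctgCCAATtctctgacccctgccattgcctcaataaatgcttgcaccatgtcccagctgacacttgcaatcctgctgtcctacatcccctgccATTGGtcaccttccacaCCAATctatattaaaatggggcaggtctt

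In the 250 bases before a start, both strands searched, the letters TCACNCCAC (N for any base) occurred in 1.05% of 32851 RefSeq promoter entries and in none of the entries of these genes. The shorter TCACNCCA, which the longer form contains and which was chosen after the sequences had been read, occurred in 3.67% of all entries and in Srebf2 at position −162 from its RefSeq start. CACGTG was present in 6.02% of entries, in Insig1 at −101 and before the second start of Scap at −40. CCAAT was common, in 33.8% of entries, and stood once before Srebf2 and Insig1 and 3 times before the first start of Insig2 and before Mylip. GGGCGG, in 32.7% of entries, was absent only before the first starts of Insig2 and Scap. A match describes letters and not the binding of a factor.

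CDAHFD against control diet was compared first, in each genotype. In WT, 4 of the 8 genes rose (Srebf2, Insig1, Mylip and Soat2) and 1 fell (Insig2), at an FDR under 0.05 and an absolute log2FC above 0.58 (limma, Benjamini-Hochberg over all tested genes). Of all tested genes 44.1% rose and 4.62% fell by the same rule, so the share that rose was near the background. In mice labelled TSP-1 null, 5 rose (the same 4 genes and Stard4) and Insig2 fell, against 41.9% and 4% of all genes. After median of ratios scaling only Srebf2 rose and Scap and Insig2 fell in WT (background 22.7% and 15.4%). In mice labelled TSP-1 null, Srebf2, Insig1 and Stard4 rose and Scap and Insig2 fell on that scale (background 22.2% and 13.6%). Libraries of both diets did not overlap for 7 of the 8 genes in each genotype (56.2% of all genes in WT, 57.8% in mice labelled TSP-1 null). The median log2FC of the 8 genes was 0.66 in WT and 0.73 in mice labelled TSP-1 null, beside 0.53 and 0.50 over all tested genes.

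**Figure D1:**
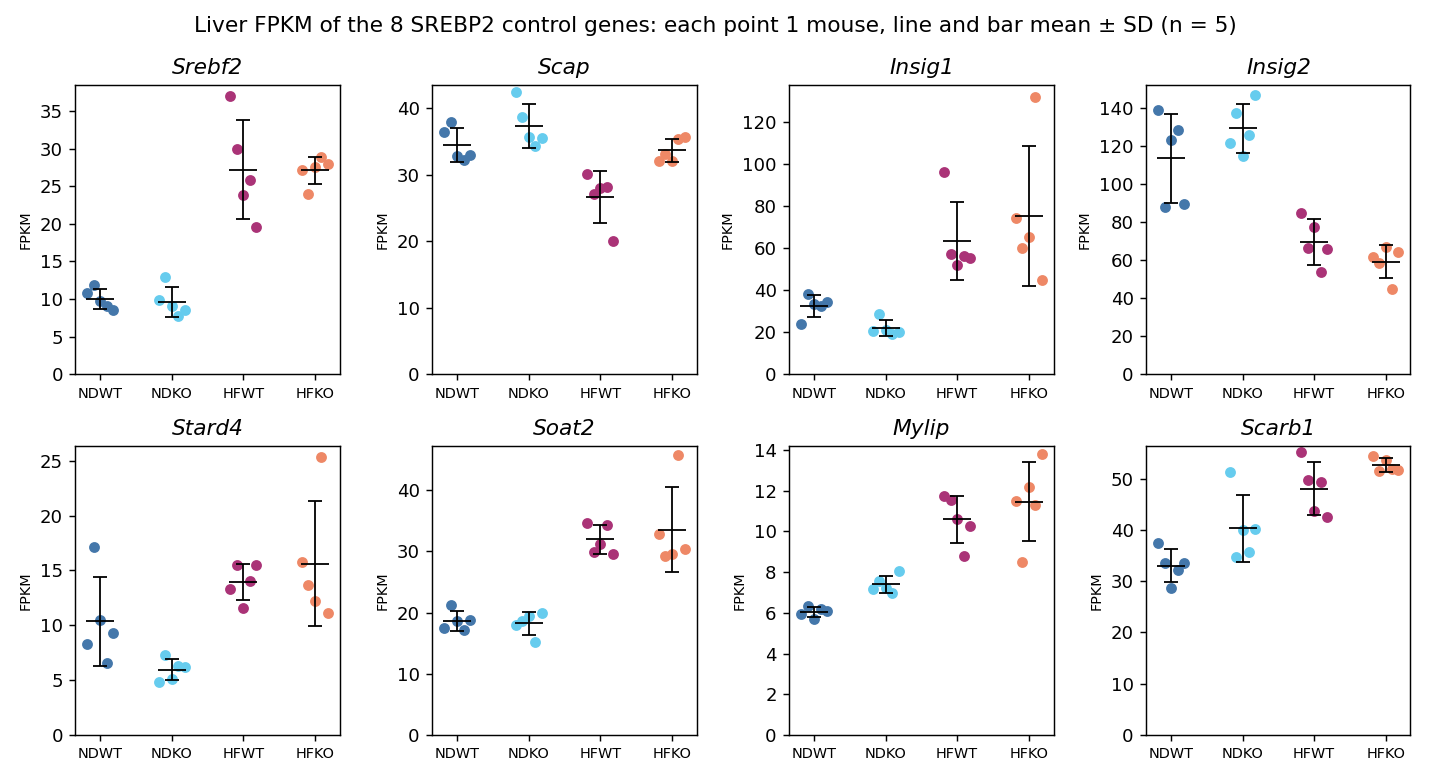
FPKM (vertical axes, from 0) of the 8 genes in each mouse, with points for single mice and the line and bar for mean ± SD (n = 5 per group). Srebf2, Soat2 and Insig1 sit higher in all 10 CDAHFD mice than in any control diet mouse, and Insig2 sits lower in all 10.

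Srebf2 (ENSMUSG00000022463.7, GRCm38 chromosome 15, 82147266 to 82205376, plus strand) encodes SREBP2. In control diet WT libraries 1 to 5, Srebf2 was at 10.8, 11.9, 9.79, 9.11 and 8.52 FPKM, and in those labelled TSP-1 null at 9.85, 12.9, 9.12, 7.76 and 8.59 FPKM. Under CDAHFD, the WT libraries held 37.0, 29.954, 23.8, 25.8 and 19.5 FPKM of Srebf2 and those labelled TSP-1 null 27.2, 24.0, 27.5, 28.8 and 27.9 FPKM. The lowest CDAHFD library lay above the highest control diet library in both genotypes, and HFWT spread more widely than HFKO. The means were 10.03 ± 1.35 FPKM in NDWT and 27.2 ± 6.64 FPKM in HFWT, a 2.65-fold rise (log2FC 1.41, SE 0.15, FDR 6.03e-08). In mice labelled TSP-1 null the rise was 2.83-fold (log2FC 1.5, SE 0.15, FDR 3e-08). It kept its call after scaling, at log2FC 0.85 in WT (FDR 1.1e-05) and 0.97 in mice labelled TSP-1 null (FDR 2.56e-06). The microRNA gene Mir33 lies within Srebf2 on the same strand and reached at most 0.808 FPKM.

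Scap (ENSMUSG00000032485.8, chromosome 9, 110333288 to 110384946, plus strand) encodes the escort of SREBP2. Scap stood at 36.4, 37.8, 32.7, 32.2 and 33.0 FPKM in NDWT libraries 1 to 5 and at 42.4, 38.7, 35.6, 34.3 and 35.5 FPKM in NDKO. Scap in HFWT was at 30.1, 27.0, 28.1, 28.2 and 20.028 FPKM, and in HFKO at 32.1, 33.2, 32.0, 35.4 and 35.6 FPKM. All 5 HFWT libraries lay below all 5 NDWT libraries, while the 2 groups labelled TSP-1 null overlapped. The WT difference (log2FC −0.38, SE 0.09, FDR 0.000962) was under the fold threshold, as was that in mice labelled TSP-1 null (−0.14, SE 0.09, FDR 0.159). After scaling Scap fell in both genotypes, by 0.94 in WT (FDR 2.83e-09) and by 0.68 in mice labelled TSP-1 null (FDR 2.63e-07) on the log2 scale. Scap therefore lay 0.91 and 0.64 log2 units below the median change of all genes, whether or not it is called as deposited. Quantile normalization called the fall in WT only, at −0.62 (FDR 6.95e-07). In mice labelled TSP-1 null it gave −0.38 (FDR 0.00025), under the fold threshold.

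Within a library the ratio of Srebf2 to Scap does not depend on library scaling, and it did not overlap between the diets in either genotype. On control diet the ratio ran from 0.259 to 0.315 in WT and from 0.227 to 0.334 in mice labelled TSP-1 null. On CDAHFD it ran from 0.847 to 1.23 in WT and from 0.724 to 0.859 in mice labelled TSP-1 null. The escort's transcript was thus well above that of Srebf2 on control diet and near it on CDAHFD. The ratio was 3.47 times higher on CDAHFD in WT and 3.15 times higher in mice labelled TSP-1 null (two-sided exact permutation test of the mean log2 ratio over 252 arrangements, p = 0.00794 each, the lowest value possible here, and 0.0159 after Benjamini-Hochberg adjustment over 8 ratio tests, chosen after the values were seen). Between the genotypes the ratio overlapped on both diets, at 0.806 ± 0.0543 in HFKO and 1.02 ± 0.154 in HFWT, and 0.258 ± 0.0439 in NDKO and 0.290 ± 0.0211 in NDWT (SD, n = 5). The Srebf2 to Scap ratio was 0.8 times as high in HFKO as in HFWT and passed (exact permutation p = 0.0159, adjusted 0.0254). On control diet its genotype difference did not pass (exact permutation p = 0.151, adjusted 0.173).

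Insig1 (ENSMUSG00000045294.10, chromosome 5, 28071363 to 28078662, plus strand) encodes the INSIG protein whose gene SREBPs themselves switch on. In control diet WT libraries 1 to 5, Insig1 was at 24.0, 38.1, 33.3, 32.6 and 34.4 FPKM, and in those labelled TSP-1 null at 20.5, 28.5, 20.9, 19.1 and 20.046 FPKM. Under CDAHFD, the WT libraries held 96.0, 57.4, 51.8, 56.3 and 55.2 FPKM of Insig1 and those labelled TSP-1 null 74.5, 59.95, 65.5, 132 and 44.8 FPKM. Every CDAHFD library lay above every control diet library, and single livers stood far above the rest in HFWT and HFKO. Insig1 rose 1.92-fold in WT (log2FC 0.94, SE 0.22, FDR 0.000831) and 3.26-fold in mice labelled TSP-1 null (log2FC 1.70, SE 0.22, FDR 1.27e-06). After median of ratios scaling the WT value was 0.38 and lost its call (FDR 0.146), and that in mice labelled TSP-1 null was 1.17 (FDR 0.000132). Quantile normalization, the other scaling run, kept both calls, at 0.81 in WT (FDR 0.00509) and 1.49 in mice labelled TSP-1 null (FDR 1.77e-05). The 2 diet effects differed by 0.76 on the log2 scale (interaction, SE 0.31, unadjusted p = 0.0244, FDR 0.246), which did not pass over all genes.

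Insig2 (ENSMUSG00000003721.8, chromosome 1, 121304353 to 121332589, minus strand) encodes the second INSIG protein, which also holds SCAP back but is not switched on by SREBPs. Insig2 stood at 139, 87.9, 123, 128 and 89.3 FPKM in NDWT libraries 1 to 5 and at 121, 137, 114, 126 and 147 FPKM in NDKO. Insig2 in HFWT was at 84.8, 66.3, 77.6, 53.5 and 65.9 FPKM, and in HFKO at 61.4, 58.4, 66.9, 45.0 and 64.2 FPKM. It was the most abundant of the 8 genes in both control diet groups, and every control diet library lay above every CDAHFD library. Insig2 fell to 0.618 of the NDWT level in HFWT (log2FC −0.70, SE 0.14, FDR 0.000225) and to 0.456 of the NDKO level in HFKO (log2FC −1.13, SE 0.14, FDR 8.72e-07). The fall kept its call after scaling, at −1.26 in WT (FDR 1.9e-07) and −1.67 in mice labelled TSP-1 null (FDR 5.56e-09). The interaction was −0.44 (SE 0.20, unadjusted p = 0.0435, FDR 0.31) and did not pass.

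As deposited, the diets overlapped in the summed level of the INSIG pair, and they did not overlap in its make-up. Unlike the ratio, the sum depends on library scaling, and it was not computed after scaling. Median of ratios scaling divided control diet libraries by 0.782 to 0.863 and CDAHFD libraries by 1.11 to 1.33. The overlap therefore holds for FPKM as deposited only. Summed FPKM of Insig1 and Insig2 was 146 ± 19.4 in NDWT and 151 ± 14.5 in NDKO. On CDAHFD the sum was 133 ± 27.7 in WT and 135 ± 26.1 in mice labelled TSP-1 null (SD, n = 5), and all 4 groups overlapped as deposited. The ratio of Insig1 to Insig2 ran from 0.173 to 0.434 in NDWT and 0.136 to 0.207 in NDKO, and from 0.668 to 1.13 in HFWT and 0.697 to 2.93 in HFKO. It was 3.11 times higher on CDAHFD in WT and 7.17 times higher in mice labelled TSP-1 null (exact permutation p = 0.00794 each, adjusted 0.0159). Between the genotypes the Insig1 to Insig2 ratio overlapped on both diets, at 0.169 ± 0.0273 in NDKO and 0.303 ± 0.105 in NDWT, and 1.37 ± 0.894 in HFKO and 0.911 ± 0.184 in HFWT (SD, n = 5). It was 0.582 times as high in NDKO as in NDWT and passed (exact permutation p = 0.0238, adjusted 0.0317). On CDAHFD the genotype difference did not pass (exact permutation p = 0.325, adjusted 0.325).

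**Figure D2:**
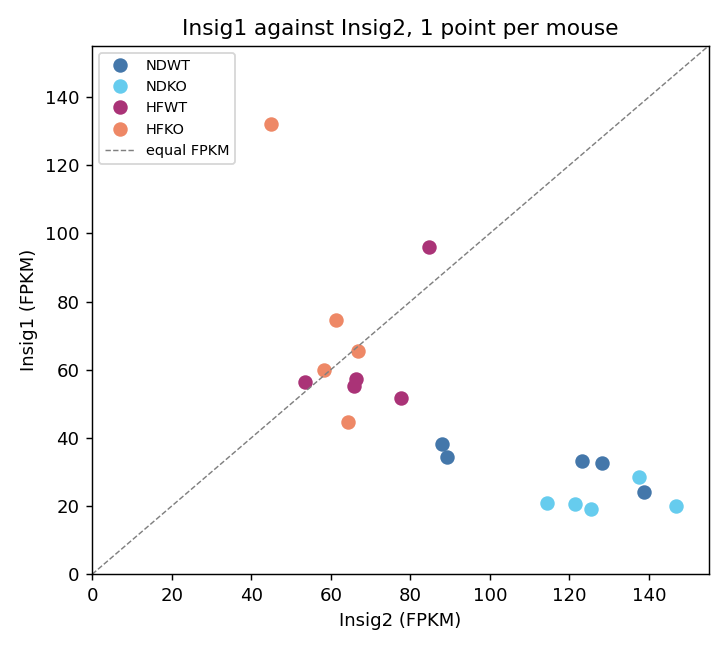
Insig1 (vertical) against Insig2 (horizontal) in FPKM, 1 point per mouse, with a dashed line where both are equal. The 10 control diet mice lie at lower right, with ratios of 0.136 to 0.434, and the 10 CDAHFD mice lie near or above the line, with ratios of 0.668 to 2.93.

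Stard4 (ENSMUSG00000024378.3, chromosome 18, 33199355 to 33213862, minus strand) encodes a soluble protein that carries sterol between membranes and is a known SREBP2 target. In control diet WT libraries 1 to 5, Stard4 was at 8.33, 17.2, 10.4, 6.54 and 9.30 FPKM, and in those labelled TSP-1 null at 4.86, 7.26, 5.11, 6.24 and 6.19 FPKM. Under CDAHFD, the WT libraries held 13.3, 15.5, 11.5, 14.018 and 15.5 FPKM of Stard4 and those labelled TSP-1 null 15.7, 13.7, 12.2, 25.4 and 11.1 FPKM. NDWT and HFWT overlapped because NDWT library 2 was above all HFWT libraries, whereas NDKO and HFKO did not overlap. Stard4 rose 2.52-fold in mice labelled TSP-1 null (log2FC 1.33, SE 0.22, FDR 2.22e-05; 0.80 after scaling, FDR 0.00399). In WT the log2FC was 0.50 (SE 0.22, FDR 0.0489), under the fold threshold, and −0.06 after scaling (FDR 0.828). Without NDWT library 2 the WT value was 0.70 and passed (FDR 0.00346). The interaction was 0.84 (SE 0.31, unadjusted p = 0.0143, FDR 0.197) and did not pass.

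Soat2 (ENSMUSG00000023045.6, chromosome 15, 102150526 to 102163474, plus strand) encodes the enzyme that esterifies cholesterol in hepatocytes and enterocytes for storage and secretion. Soat2 stood at 17.4, 21.3, 18.6, 17.1 and 18.7 FPKM in NDWT libraries 1 to 5 and at 17.999, 18.6, 19.5, 15.3 and 19.9 FPKM in NDKO. Soat2 in HFWT was at 34.7, 29.955, 31.3, 34.3 and 29.5 FPKM, and in HFKO at 32.9, 29.2, 29.6, 45.8 and 30.4 FPKM. All CDAHFD libraries lay above all control diet libraries, and HFKO library 4 stood apart from its group. Soat2 rose 1.71-fold in WT (log2FC 0.78, SE 0.11, FDR 2.38e-06) and 1.82-fold in mice labelled TSP-1 null (log2FC 0.86, SE 0.11, FDR 7.26e-07). After median of ratios scaling it was at 0.22 (FDR 0.0732) and 0.33 (FDR 0.00974), under the fold threshold in both. Quantile normalization gave 0.5 in WT (FDR 0.000426) and 0.56 in mice labelled TSP-1 null (FDR 0.00017), also under that threshold.

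Mylip (ENSMUSG00000038175.9, chromosome 13, 45389742 to 45412019, plus strand) encodes a ubiquitin ligase, a target of the sterol sensor LXR, that marks lipoprotein receptors for degradation. In control diet WT libraries 1 to 5, Mylip was at 5.93, 6.36, 5.71, 6.18 and 6.07 FPKM, and in those labelled TSP-1 null at 7.15, 7.58, 7.21, 6.99 and 8.04 FPKM. Under CDAHFD, the WT libraries held 11.7, 11.5, 10.6, 8.81 and 10.3 FPKM of Mylip and those labelled TSP-1 null 11.5, 8.48, 12.2, 11.3 and 13.8 FPKM. The lowest CDAHFD library was above the highest control diet library in each genotype, and Mylip was the least abundant of the 8 genes in 3 of the 4 groups. It rose 1.73-fold in WT (log2FC 0.79, SE 0.10, FDR 8.31e-07) and 1.53-fold in mice labelled TSP-1 null (log2FC 0.61, SE 0.10, FDR 2.18e-05). Without HFKO library 5 the second value was 0.54 and no longer passed the fold threshold. After scaling the log2FC was 0.24 (FDR 0.0223) and 0.08 (FDR 0.443), so Mylip lay 0.26 and 0.11 above the median change of all genes.

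Scarb1 (ENSMUSG00000037936.9, chromosome 5, 125277087 to 125341094, minus strand) encodes SR-BI, the receptor that takes cholesterol ester from high density lipoprotein. Scarb1 stood at 37.5, 33.6, 28.6, 32.1 and 33.4 FPKM in NDWT libraries 1 to 5 and at 51.2, 34.6, 39.9, 35.6 and 40.1 FPKM in NDKO. Scarb1 in HFWT was at 55.1, 49.7, 43.6, 49.4 and 42.6 FPKM, and in HFKO at 54.4, 51.4, 53.7, 51.8 and 51.7 FPKM. The diets did not overlap in either genotype, but the difference was small. The log2FC was 0.54 in WT (SE 0.09, FDR 4.37e-05) and 0.40 in mice labelled TSP-1 null (SE 0.09, FDR 0.000937), both under the fold threshold. The WT value passed without NDWT library 1 (0.59) or HFWT library 5 (0.58). After median of ratios scaling the sign turned, to −0.02 (FDR 0.847) and −0.14 (FDR 0.199). Quantile normalization kept it positive but under the fold threshold, at 0.36 in WT (FDR 0.00184) and 0.22 in mice labelled TSP-1 null (FDR 0.0462). The sign thus depended on the scaling, so no direction is given for Scarb1.

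**Figure D3:**
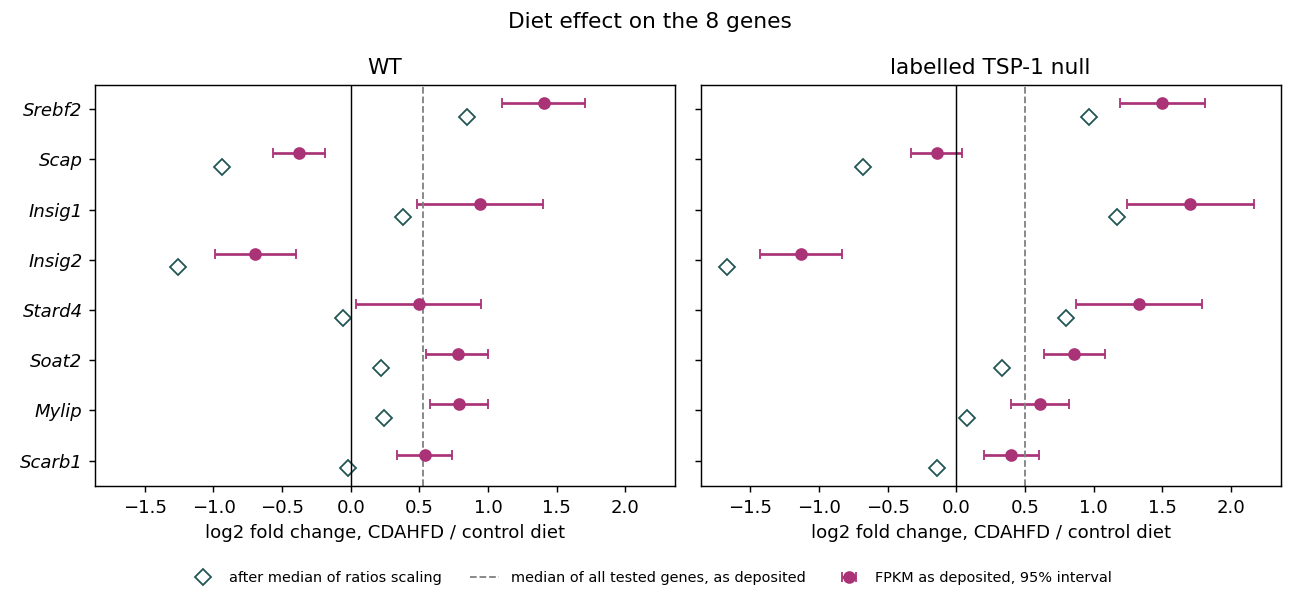
Log2 fold change of CDAHFD over control diet (horizontal) for the 8 genes in WT and in mice labelled TSP-1 null, with filled points for FPKM as deposited and their 95% intervals (n = 5 per group), open diamonds after median of ratios scaling and a dashed line at the median of all tested genes. Srebf2 lies right of the dashed line and Insig2 and Scap lie left of it in both panels, while Scarb1 lies on or near it.

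Markers of macrophages, stellate cells, cholangiocytes and lymphocytes moved with the diet. Of all tested genes 44.1% rose and 4.62% fell in WT, and 41.9% and 4% in mice labelled TSP-1 null. Macrophage markers (8 genes) summed to 123 to 206 FPKM in the control diet libraries and 563 to 1240 on CDAHFD, and 7 of 8 rose in each genotype. Lyz2 held most of the CDAHFD sum (mean 870 FPKM in HFWT, 44.6 in NDWT), while Clec4f, a marker of Kupffer cells, fell by 1.22 in WT (FDR 6.96e-06) and by 0.77 in mice labelled TSP-1 null (FDR 0.000911). Stellate cell markers (8 genes) summed to 10.7 to 15.9 FPKM on control diet and 125 to 298 on CDAHFD, and all 8 rose in each genotype. Cholangiocyte markers (6 genes) summed to 12.4 to 18 and 182 to 488 FPKM, and the 5 tested rose, but Spp1, which macrophages also make, held most of the sum (mean 13.6 FPKM in NDWT and 379 in HFWT). T and B cell markers (6 genes) summed to 1.54 to 4.13 and 4.71 to 12.7 FPKM, and 5 of 6 rose. Endothelial markers (6 genes) overlapped between the diets, at 44.9 to 59.4 and 49.3 to 82.7 FPKM, and 1 rose in WT and 2 in mice labelled TSP-1 null. No marker was at 0 in all libraries of a group. Among hepatocyte markers 2 of 10 fell in WT and 3 of 10 in mice labelled TSP-1 null, and none rose. After scaling 8 and 5 of 10 fell (15.4% and 13.6% of all genes). On that scale 2 of 6 endothelial markers fell and none rose in WT, and 1 rose in mice labelled TSP-1 null. Of 6 T and B cell markers 4 and 3 rose, and of 8 stellate cell markers 7 rose in each genotype (22.7% and 22.2% of all genes). Macrophage and cholangiocyte counts were unchanged. The part of these cells in the values of the 8 genes was not tested, and in whole liver fewer cells of a type and less RNA per cell cannot be told apart.

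The genes around SREBP2 were counted by the same rule in lists chosen by function. Of 24 genes for SREBP transport, cleavage and degradation, 4 rose and 2 fell in WT, and 4 rose in mice labelled TSP-1 null. Over all tested genes 44.1% rose and 4.62% fell in WT, and 41.9% and 4% in mice labelled TSP-1 null. The sister factor Srebf1 rose (log2FC 1.5 and 1.24), as did Rnf145, a ubiquitin ligase of the sterol response (0.95 and 1.27). After scaling Srebf1 was at 0.94 and 0.71 and kept both calls, while Rnf145 was at 0.40 in WT and lost its call there (FDR 0.00389), with 0.75 in mice labelled TSP-1 null. In WT Sar1b, a GTPase of the vesicles that leave the endoplasmic reticulum, fell by 0.74 and March6, a ubiquitin ligase that degrades squalene epoxidase, fell by 0.59. The median of this list was 0.09 in WT and 0.26 in mice labelled TSP-1 null, below the 0.53 and 0.50 of all genes. After scaling the split turned, with 1 rising and 7 falling in WT and 2 rising and 6 falling in mice labelled TSP-1 null. On that scale 22.7% of all genes rose and 15.4% fell in WT, and 22.2% and 13.6% in mice labelled TSP-1 null. Scap, at −0.38 and −0.14, lay below the median of this list in both genotypes.

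Cholesterol synthesis enzymes, the best known targets of SREBP2, mostly rose. Of 20 enzymes, 16 rose and 2 fell in WT and 17 rose and 1 fell in mice labelled TSP-1 null, with a median log2FC of 1.72 and 1.95. The shares of all genes were 44.1% and 4.62% in WT and 41.9% and 4% in mice labelled TSP-1 null. After scaling 14 rose and 2 fell in WT (22.7% and 15.4% of all genes). In mice labelled TSP-1 null 13 rose and 3 fell on that scale (22.2% and 13.6%). Sqle, which makes squalene epoxide, had a log2FC of 3.41 and 3.43, and Mvk, which phosphorylates mevalonate, 2.61 and 2.14. The fallers were Tm7sf2, a sterol reductase (−0.88 and −0.92), and in WT Ebp, a sterol isomerase (−0.58). Srebf2 itself, at 1.41 and 1.5, lay below the median of the enzymes in both genotypes.

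Genes of the neighbouring steps were mixed, beside 44.1% of all genes rising and 4.62% falling in WT and 41.9% and 4% in mice labelled TSP-1 null. Of 10 tested lipoprotein receptors and partners 5 rose and 1 fell in WT, and 5 rose and 2 fell in mice labelled TSP-1 null. Sort1, a sorting receptor of the Golgi apparatus, rose by 2.09 and 2.14, and hepatic lipase Lipc fell by 0.65 and by 0.95. Of 13 genes for sterol transport beside Stard4, 5 rose and 1 fell in WT, and 4 rose and 1 fell in mice labelled TSP-1 null. Npc2, which lifts cholesterol out of lysosomes, rose by 1.67 and 1.41, and the carrier Scp2 fell by 0.85 and by 0.72. Of 5 tested genes for cholesterol ester, 1 rose in each genotype and Lcat, which esterifies cholesterol in plasma, fell in WT by 0.79. The riser was Soat1, the isoform of macrophages and other cells, at 2.90 and 2.61 beside the 0.78 and 0.86 of Soat2. Of 14 LXR receptors and targets, 6 rose and 1 fell in WT and 5 rose and 1 fell in mice labelled TSP-1 null, from Lpl at 4.31 and 3.73 to Scd1 at −5.00 and −3.61. The median of the LXR list was 0.19 and 0.08, below the 0.79 and 0.61 of Mylip. The shares of receptors, sterol transport genes and LXR genes that rose were thus near the share of all genes. After scaling (all genes 22.7% and 15.4% in WT, 22.2% and 13.6% in mice labelled TSP-1 null) the risers and fallers were 2 and 3 in WT and 2 and 2 in mice labelled TSP-1 null for the receptors, and 3 and 3, and 2 and 4, for sterol transport. They were 1 and 2, and 1 and 1, for cholesterol ester, and 3 and 5, and 4 and 3, for the LXR list.

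**Figure D4:**
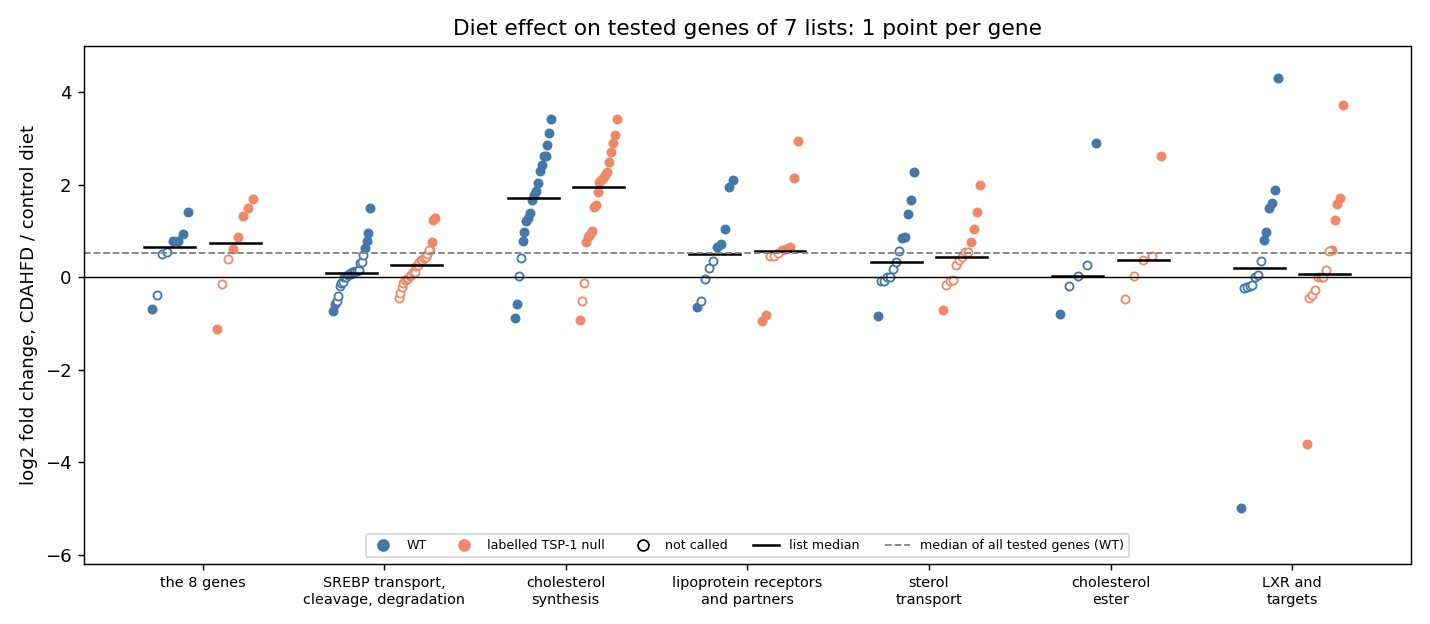
Log2 fold change of CDAHFD over control diet (vertical), 1 point per tested gene of 7 lists, in WT and in mice labelled TSP-1 null, filled where called, with a bar at each list's median and a dashed line at the median of all tested genes in WT. Cholesterol synthesis stands highest, with medians of 1.72 and 1.95, and the list for SREBP transport, cleavage and degradation has medians of 0.09 and 0.26.

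TSP-1 null against WT was compared next, on each diet. On control diet none of the 8 genes rose and Stard4 fell (1.74% and 3.03% of all genes), and 1 gene, Mylip, did not overlap between the groups (9.03% of all genes). Stard4 was at 0.602 of the WT level (5.93 ± 0.970 FPKM against 10.4 ± 4.07 FPKM; log2FC −0.73, SE 0.22, FDR 0.0331). The Stard4 call was lost in 10 of 20 alternatives, among them scaling (−0.66, FDR 0.0583) and leaving out NDWT library 2, the library with most Stard4 (−0.53, FDR 0.0822). Over the alternatives its FDR ran from 0.0122 to 0.0892. Insig1 (log2FC −0.57, FDR 0.0963), Mylip (0.28, FDR 0.068) and Scarb1 (0.28, FDR 0.0604) had an unadjusted p under 0.05 and did not pass. After scaling Mylip (0.36, FDR 0.0105) and Scarb1 (0.35, FDR 0.0151) passed the FDR but not the fold threshold. The intervals for the other genes were narrow for Soat2 (−0.25 to 0.19) and wider for Srebf2 (−0.37 to 0.24).

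On CDAHFD none of the 8 genes was called by limma in either direction (0.165% of all genes rose and 0.33% fell), and none after scaling or quantile normalization. The count at an unadjusted p under 0.05 was 1, Scap, which was also the gene without overlap between the genotypes (4.98% of all genes). Scap was 1.27 times higher in mice labelled TSP-1 null (log2FC 0.35, SE 0.09, FDR 0.0671). After scaling its FDR was 0.00448 at a log2FC of 0.45, still under the fold threshold. With 1 mouse left out the Scap log2FC ran from 0.25 to 0.39, and over all alternatives its FDR ran from 0.00448 to 0.14. HFWT library 5 held the least Scap (20.028 FPKM) and, over all tested genes, was the library least like the rest of its group (r 0.966). Summed hepatocyte markers were 30500 to 44200 FPKM in HFWT and 41800 to 52300 in HFKO, and their part in the Scap difference was not tested. Alb held most of these sums (mean 23000 FPKM in HFWT and 29700 in HFKO), and none of the 10 markers was called between the genotypes on CDAHFD. Ahsg passed the FDR there but not the fold threshold (log2FC 0.44, FDR 0.0438). On control diet 2 of the 10 were called higher in mice labelled TSP-1 null (1.74% of all genes). They were Cps1 (log2FC 1.1, FDR 0.000949) and Pck1 (0.82, FDR 0.00832). The interval of the difference was −0.28 to 0.33 for Srebf2, −0.27 to 0.66 for Insig1 and −0.35 to 0.56 for Stard4. The diet by genotype interaction was called for none of the 8 genes (0.647% of all genes in either direction), nor after scaling or quantile normalization, and 3 had an unadjusted p under 0.05, the Stard4, Insig1 and Insig2 values given with each gene. Comparisons by diet and by genotype share libraries and are not independent.

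In the lists, Cyp7a1, the rate-limiting enzyme of bile acid synthesis and an LXR target in mice, was higher on control diet in mice labelled TSP-1 null (log2FC 2.09, FDR 0.00578). Cd36, a scavenger receptor, was lower there (−1.21, FDR 0.00619). Erlin1, part of the complex that degrades sterol-sensing proteins of the endoplasmic reticulum, had an interaction of 0.66 (FDR 0.0303).

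From mouse to mouse within groups, Insig1 followed the cholesterol synthesis enzymes most closely of the 8 genes. Deviations of log2(FPKM + 0.1) from the group means were correlated over the 20 libraries, as a description without a test. Among the genes most like Insig1 were Fdft1, which makes squalene (Pearson r 0.95, Spearman rho 0.83), and Hmgcs1 (0.86 and 0.60). Of the 50 genes most like Insig1, 17 were among the 20 cholesterol synthesis enzymes, and 14 without HFKO library 4 or without HFWT library 1, the livers with most Insig1. For Stard4 the count was 11, but 1 without HFKO library 4, and for Soat2 it was 6 and 1. Among the likest to Stard4 were Slc35d1 (0.85 and 0.66) and Msmo1 (listed as Sc4mol, 0.79 and 0.81), and to Soat2 Aifm3 (0.82 and 0.84) and Pmvk (0.79 and 0.70).

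The other 5 genes had none of the enzymes among their 50 likest. Those most like Srebf2 were F8a (r 0.93), Gata4 (0.91) and Tysnd1 (0.90), and most like Insig2 were Siah1b (0.87), Npas2 (0.82) and Sh3pxd2a (0.82). Scap was most like Rps10-ps2 (0.92), Gpi1 (0.92) and 0610037L13Rik (0.91), Mylip like Flt4 (0.89), B3galtl (0.87) and Fbxo38 (0.85), and Scarb1 like Tiam1 (0.86), BC029214 (0.79) and Slc22a17 (0.79). Against the mean deviation of the enzymes, r was 0.91 for Insig1, 0.72 for Stard4, 0.68 for Soat2, 0.59 for Srebf2, 0.35 for Scap and −0.17 for Insig2 (rho 0.74, 0.59, 0.52, 0.51, 0.13 and −0.02). Without HFKO library 4 these r were 0.84, 0.55, 0.38, 0.70, 0.34 and 0.18. The points share library depth and scaling, and after median of ratios scaling r was 0.91 for Insig1 and 0.55 for Srebf2.

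**Figure D5:**
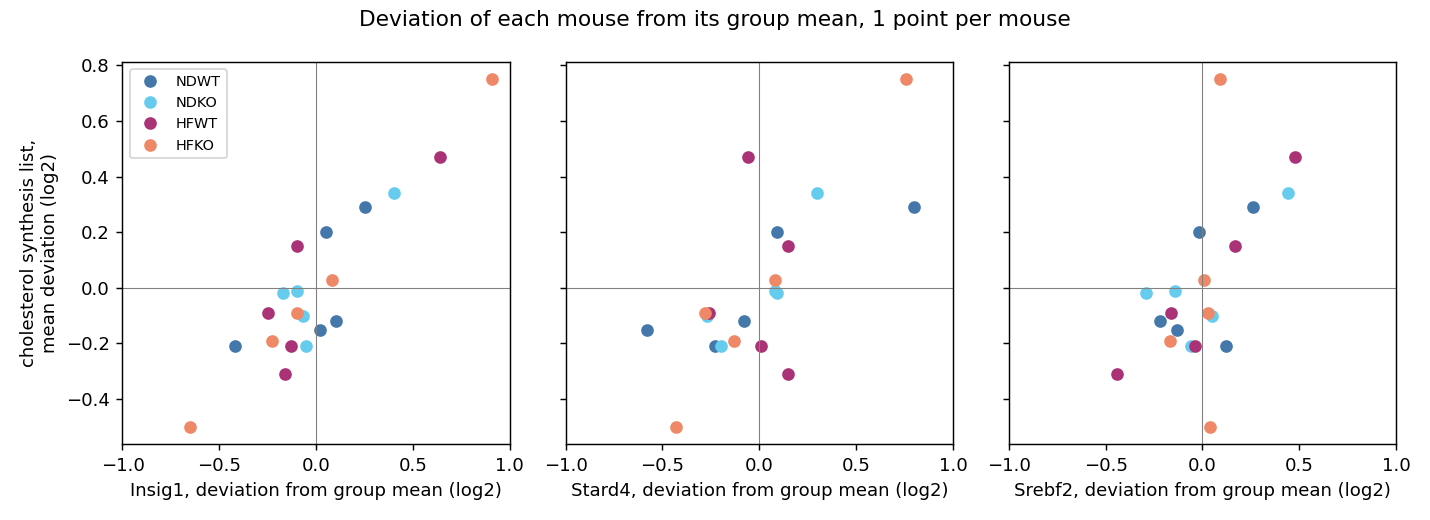
Deviation of each mouse from its group mean on the log2 scale, with Insig1, Stard4 or Srebf2 on the horizontal axis and the mean of the cholesterol synthesis enzymes on the vertical axis, 1 point per mouse (20 in each panel). HFKO library 4 is the top point in each panel, high in Insig1 and Stard4 and near its group mean in Srebf2.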

How the data were processed

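RNA was measured in 20 livers, 5 mice per group, as grouped by the sample labels. For the lobe sampled, the series description says right medial and the methods right lateral. The deposited table gives FPKM per gene (log2 values were computed from it) with the gene length in bases, on GRCm38 coordinates. The authors enriched poly(A) RNA with a strand-marking kit and processed reads with QuickRNASeq, and the submitters' processing notes name STAR 2.5.2, featureCounts and Subread 1.5.1. Those notes also name GRCh38, which the mouse coordinates go against. The strand setting of the counting is not given in the sources used here. Whole fragments could be recovered from FPKM, gene length and library total (100.0% of checked values whole within 0.1), which gave the library depths. They carry no molecular identifiers, so depth speaks for counting error only. No pair of libraries of a group differed by less than sampling noise.

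A linear model with 1 mean for each group was fitted to log2(FPKM + 0.1) of the 20 libraries together, using limma 3.58.1 (eBayes with trend; R 4.3.3). The thresholds follow the study's methods, but the counts of called genes differ from those the study reports. By diet more genes rose here (6412 in WT, 6088 in mice labelled TSP-1 null) and fewer fell (671 and 581) than it reports. After median of ratios scaling 3299 and 3225 rose and 2242 and 1981 fell, nearer to the study's counts but above them. Fold changes are on that scale, and errors are SE of the fit or SD over 5 mice. Median of ratios scaling divided each library by the median ratio of its genes to their geometric mean. Ratio tests, likeness without single libraries, and the names Tm7sf2, Ebp, Lipc, March6 and Ahsg were chosen after the values were seen. Otherwise named genes are the 8, up to 4 called genes per list and comparison by lowest FDR, and the 3 most alike to each of the 8, of which some are not reported here. The 8 genes and the lists were chosen with earlier results of these data known. Alternatives were pseudocounts of 0.01 and 1, other filters, median of ratios and quantile scaling, no fold threshold, only the groups compared, other eBayes settings, a block for replicate number, and leaving out single mice. Figures were drawn with matplotlib 3.10.9 under Python 3.11.15, from tables made with pandas 2.3.3.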

Additional observations from a re-analysis of the deposited data

Results flagged for a closer look

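In 3 of the 32 combinations of a gene and a group, 1 mouse lay far from the other 4 (Dixon's test, 95% critical value 0.71 for 5 mice; chance gives about 1 in 20). Insig1 in NDKO library 2 was at 28.5 FPKM, next to 20.9 in the nearest mouse. Insig1 in HFWT library 1 was at 96 FPKM, next to 57.4. Soat2 in HFKO library 4 was at 45.8 FPKM, next to 32.9. The last of these livers also held the most Insig1 (132 FPKM) and Stard4 (25.4 FPKM) of its group. The cause was not tested.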

How the results depend on the processing

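Of 880 values of single genes under alternatives, 832 kept their direction and their side of the threshold, 21 lost a call, 10 gained one and 17 changed sign, none of them past the threshold on either setting. In WT the diet comparison called 5 of the 8 genes, 3 after median of ratios scaling, 8 with no fold threshold and 5 to 6 with 1 mouse left out. In mice labelled TSP-1 null it called 6, and 4 to 7 over all alternatives. The single genotype call on control diet, Stard4, went to 0 with no filter on low values, with median of ratios scaling, with quantile normalization and with only the groups compared. It was 0 to 1 with 1 mouse left out, and 0 without NDWT library 2, 3 or 5 or NDKO library 1, 3 or 4. The genotype comparison on CDAHFD and the interaction stayed at 0 in every alternative run.

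After median of ratios scaling the sign changed for the diet effect of Stard4 in WT (−0.06) and of Scarb1 in WT (−0.02) and in mice labelled TSP-1 null (−0.14). On control diet the genotype value of Srebf2 became 0.01 with that scaling, 0 with quantile normalization and 0.01 without NDKO library 4, and that of Soat2 became 0.04, 0.03 and 0.03, and 0.02 without NDWT library 2. On CDAHFD the genotype value became −0.02 and −0.09 for Srebf2 without HFWT library 3 or 5, and −0.03, −0.09 and −0.07 for Insig1, Stard4 and Soat2 without HFKO library 4. With 1 mouse left out these genotype values ran on control diet from −0.18 to 0.01 for Srebf2 and −0.06 to 0.03 for Soat2, and on CDAHFD from −0.09 to 0.14 for Srebf2, −0.03 to 0.36 for Insig1, −0.09 to 0.21 for Stard4 and −0.07 to 0.1 for Soat2. The interaction ran from −0.02 to 0.21 for Srebf2 and from −0.03 to 0.13 for Soat2. It became −0.02 for Srebf2 without HFWT library 5 and −0.03 for Soat2 without HFKO library 4. The cause was not tested. The 4 ratio tests between diets kept their side of 0.05 with any 1 mouse left out (exact permutation p = 0.0159 in each). Between genotypes, Insig1 to Insig2 on control diet (at most 0.0476) and Srebf2 to Scap on CDAHFD (at most 0.0317) also stayed under 0.05. Insig1 to Insig2 on CDAHFD stayed above it (0.111 to 0.651). Srebf2 to Scap on control diet fell under it only without NDKO library 2 (exact permutation p = 0.0159). The number of cholesterol synthesis enzymes among the 50 genes most like Stard4 was 7 after scaling.

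Replicate numbers did not pair the mice: over 20 pairs of same-numbered libraries the correlation of deviations ran from −0.13 to 0.08. With a replicate block the comparisons called 5, 6, 1, 0 and 0 of the 8 genes, as without it. Depth was least for Mylip, with 311 to 806 fragments per library.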
